A study of Mus musculus with 6 samples.

Results

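The set described here is 10 enzyme genes of serine, one-carbon and asparagine synthesis: Phgdh, Psat1, Psph, Shmt1, Shmt2, Mthfd1, Mthfd2, Mthfd1l, Aldh1l2 and Asns. They were taken by gene symbol, and all 10 had a row among the 16472 genes of the authors' deposited table. The samples are 6 mRNA libraries of HT22, an immortalised mouse hippocampal cell line. A group of 3 libraries came from cells exposed for 16 h to AA147, a small molecule known to activate ATF6, a regulator of the unfolded protein response, and NRF2, which answers oxidative stress. The other 3 came from cells given the vehicle, DMSO, for the same time. The labels write the AA147 dose as 10 mM, a unit that may be a slip and could not be checked. All cells grew in serum-containing DMEM with added glutamine. The labels number the libraries as replicates and do not say that they came from separate cultures, so the p-values measure the spread between these libraries, which may be technical.

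Serine is made from the glycolytic intermediate 3-phosphoglycerate in successive steps by PHGDH, PSAT1 and PSPH. The SHMT enzymes then pass a carbon of serine to folate, giving glycine, and the MTHFD enzymes and ALDH1L2 interconvert or oxidise the folate-bound carbon, which feeds purine, thymidylate and methionine synthesis. These folate reactions run in parallel in the cytosol and in mitochondria. Asparagine is made from aspartate and glutamine by ASNS. Many of these genes are known targets of ATF4, the transcription factor of the integrated stress response, which binds C/EBP-ATF response elements. In lung cancer cells NRF2 is known to raise serine synthesis genes by way of ATF4.

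The promoters of 4 members are shown because Asns carries the best known ATF4 site of the group, while Phgdh, Psat1 and Shmt2 were strongly expressed members whose windows can be set beside it. Each window is the 120 bases before the RefSeq start, read 5′ to 3′ on the gene's own strand, from assembly GRCm38.p6. All 4 lie on the minus strand, at chr6:7693210-7693329 for Asns, chr3:98339970-98340089 for Phgdh, chr19:15925060-15925179 for Psat1 (the upstream one of 2 listed starts) and chr10:127522445-127522564 for Shmt2. Capitals mark TGATGNAA, the core of the C/EBP-ATF response element, and the CCAAT box on either strand.
Asns: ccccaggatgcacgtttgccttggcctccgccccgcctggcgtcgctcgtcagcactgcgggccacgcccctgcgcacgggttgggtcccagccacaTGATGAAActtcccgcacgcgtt
Phgdh: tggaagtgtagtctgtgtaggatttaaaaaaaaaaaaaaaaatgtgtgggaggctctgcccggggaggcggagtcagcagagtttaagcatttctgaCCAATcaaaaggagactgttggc
Psat1: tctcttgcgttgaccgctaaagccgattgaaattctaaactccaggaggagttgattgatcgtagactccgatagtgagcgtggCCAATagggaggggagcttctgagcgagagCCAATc
Shmt2: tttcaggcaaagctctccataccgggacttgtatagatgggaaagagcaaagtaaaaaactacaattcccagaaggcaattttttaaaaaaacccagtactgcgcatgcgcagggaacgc

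A search of 250 bases before to 50 bases after the start, on both strands, covered 5 motifs. RefSeq promoters were matched for 9 of the 10 members, all except Aldh1l2. These 9 genes had 10 promoters, since Psat1 has 2 listed starts. Members were counted by gene, while the shares over all are by promoter. TGATGNAA was found in 1 of these 9 genes, Asns, at bases -23 to -16 from the start, and in 3.97% of all 32851 promoters of the same length. GTTACA, the second nutrient-sensing element known from Asns, was also found in Asns alone among the 9, with 12 bases between the matches, and in 8.25% of all promoters. The CCAAT box was found in 6 of the 9 genes against 37.4% of all promoters, and the antioxidant response element core TGACNNNGC in 3 (Phgdh, Psph and Asns) against 12.4%. The E-box CACGTG was found in 0 of the 9 and in 7.15% of all promoters. The matches in these 9 genes did not overlap each other, and a match describes letters only.

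Values per library were not analysed here, because the authors' deposited table has 1 line per gene. It gives a mean normalized count over the libraries, a log2 fold change with its standard error (SE), and a p-value adjusted over 13597 genes. A gene is called where the adjusted p is under 0.05. The header does not name the numerator. A positive value is read as higher with AA147, and every direction below depends on that reading. The list of 11 known NRF2 targets used to check it was drawn up with earlier results of these data known, so it is no independent check. Of these targets, 10 were called positive and 0 negative in the authors' deposited table, and their median was 0.63 (log2). The authors' deposited table lists the 4 largest at 1.84 for Gsta4, 1.09 for Blvrb, 0.93 for Nqo1 and 0.88 for Taldo1, each with an SE of at most 0.072. The check of the cell type gave few neuronal markers. Of 13 general neuronal markers 2 had a row in the authors' deposited table, Tubb3 with a mean of 1199 and Stmn2 with a mean of 6.24. Of 7 hippocampal markers 2 had a row, both with means of at most 10.6. Rows were present for 3 of 5 astrocyte, 2 of 5 microglia and 2 of 4 oligodendrocyte markers, of which Slc1a3 had a mean of 927 in the authors' deposited table and the others means under 100. The called markers among these and the neuronal ones were Slc1a3 at -1.30 (SE 0.089), Tubb3 at 0.43 (SE 0.092) and Csf1r at 0.95 (SE 0.34) in the authors' deposited table. Fibroblast and mesenchymal markers were abundant, with 8 of 9 present (all but Lum). Of these, 6 were called negative in the authors' deposited table and 0 positive, and Vim and Fn1 were not called. The summed implied mean of all 8 was 819909 with vehicle and 474677 with AA147. The part of these marker shifts in the values below was not tested.

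All 10 members had negative log2 fold changes in the authors' deposited table, and 8 were called. Expression of Psph, Psat1, Asns, Phgdh, Shmt2, Mthfd2, Shmt1 and Mthfd1l fell with AA147, and Mthfd1 and Aldh1l2 were not called. The members' median log2 fold change was -0.37, against 0.01 over all tested genes. Calls made up 20.2% of all tested genes, 11.1% negative and 9.05% positive. Of the 5895 tested genes whose mean reached 1000, as that of all 10 members did, 28.4% were called, 15.6% negative and 12.8% positive. The changes were modest, from -0.69 for Psph to -0.06 for Mthfd1, and 0 members reached a 2-fold change. In a bulk culture, less RNA per cell and fewer cells that make it cannot be told apart.

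**Figure D1:**
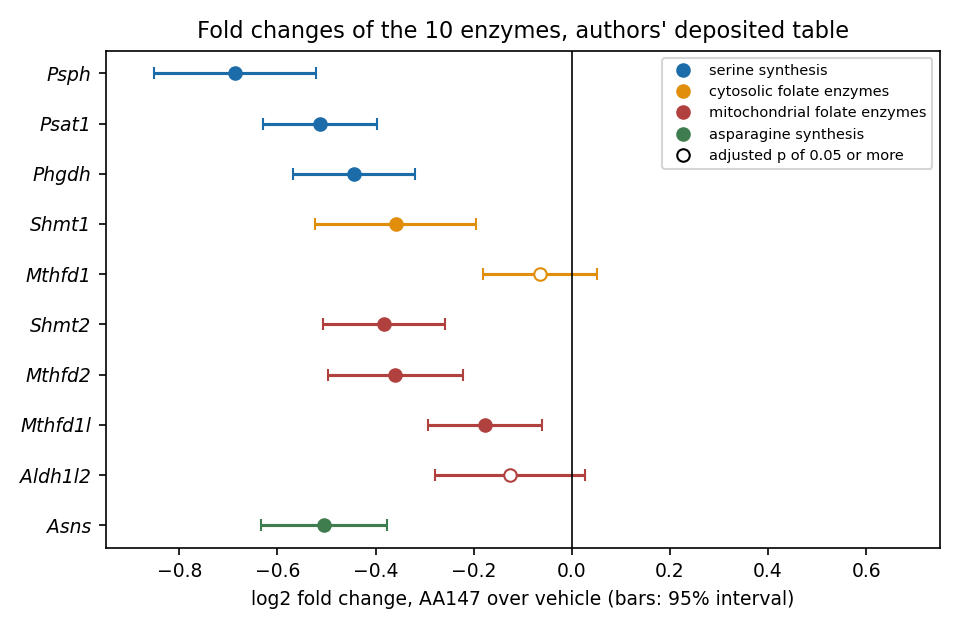
Log2 fold change, AA147 over vehicle, of each of the 10 enzyme genes, with bars for the 95% interval and colours for the pathway step. Filled points have an adjusted p under 0.05. The 3 serine synthesis genes and Asns lie lowest, and the intervals of Mthfd1 and Aldh1l2 cross 0.

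The serine synthesis genes all fell. Phgdh encodes the dehydrogenase that commits 3-phosphoglycerate to serine. Its mean in the authors' deposited table was 5984 normalized counts and its log2 fold change -0.44 (SE 0.063, adjusted p 8.7e-11). With the 95% interval taken as the SE times the normal quantile on either side, this is a change of -26.5% with an interval from -32.5% to -19.9%. In the authors' deposited table Psat1, the transaminase of the second step, had a mean of 19720 and a log2 fold change of -0.51 (SE 0.059, adjusted p 3.98e-16), or -29.9% (interval -35.3% to -24.0%). Psph, the phosphatase that releases serine, had the largest change of the set. Its log2 fold change in the authors' deposited table was -0.69 (SE 0.084, adjusted p 3.07e-14) at a mean of 1613, or -37.8% (interval -44.6% to -30.3%). With the fold change taken at face value and the groups equal in size, a mean and its fold change imply one level per group. These implied means were 6898 with vehicle and 5071 with AA147 for Phgdh, 23190 and 16250 for Psat1, and 1990 and 1237 for Psph.

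The counting limits the values of some members. Transcripts of 25 other annotated mouse genes matched the canonical Phgdh transcript at 90% identity or more over at least 200 bases, 16 of them over more than 50% of its length, with a highest identity of 98.8%. None of these 25 had a row under its own or an older name in the authors' deposited table, and whether their reads were counted for Phgdh is not given in the sources used here. Psat1 had 3 such matches and Shmt2 had 1, none over more than 50% of the transcript, and the remaining 7 members had 0 outside the genes that overlap them. Of the Psat1 matches, 1 was a transcript of the member Shmt1, over 203 bases at 93.1% identity on the opposite strand. A spliced genome copy of 74.4% of the Psat1 transcript, at 89.2% identity, also overlaps Shmt1 among other genes. Whether Psat1 reads were counted for Shmt1 is not given in the sources used here. Shmt2 also has a spliced genome copy, of 91.3% of its transcript at 86.1% identity, which overlaps other annotated genes. Psph shares 465 bases, 19.1% of its canonical transcript, with Cct6a on the opposite strand. The libraries were not stranded, so reads from that stretch cannot be assigned. Cct6a, a chaperonin subunit, was positive in the authors' deposited table, with a mean of 13435 and a log2 fold change of 0.18 (SE 0.056, adjusted p 0.00948).

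Asns fell to a similar degree. Its mean in the authors' deposited table was 13038 and its log2 fold change -0.50 (SE 0.066, adjusted p 8.34e-13), which is -29.5% with an interval from -35.5% to -23.0%. The implied means were 15297 with vehicle and 10779 with AA147. Asns is the member whose promoter window, shown above, holds the C/EBP-ATF letters.

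**Figure D2:**
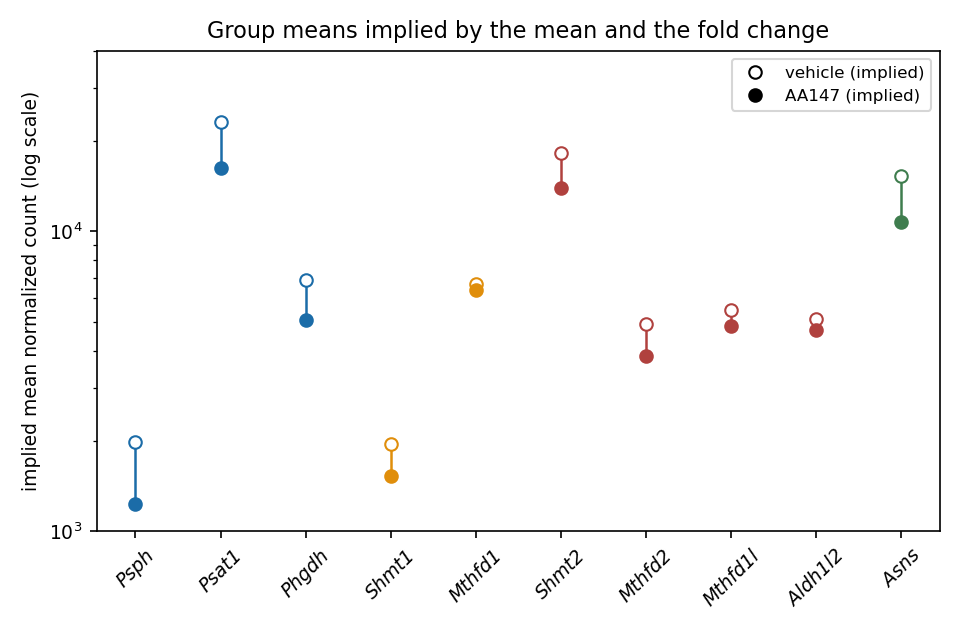
Mean normalized count (log scale) implied for vehicle (open points) and AA147 (filled points) by the mean and the fold change in the authors' deposited table. Psat1 runs from 23190 to 16250 and Psph from 1990 to 1237, while the points of Mthfd1 nearly touch.

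Both serine hydroxymethyltransferases fell. In the authors' deposited table the mitochondrial Shmt2 had a mean of 16100 and a log2 fold change of -0.38 (SE 0.063, adjusted p 4.87e-08), a change of -23.3% (interval -29.7% to -16.4%). The authors' deposited table gave the cytosolic Shmt1 a mean of 1739 and a log2 fold change of -0.36 (SE 0.084, adjusted p 0.000249), or -22.0% (interval -30.4% to -12.7%). The intervals of the pair overlapped over most of their width. Per kilobase of canonical transcript, the mean of Shmt2 was 7009 normalized counts and that of Shmt1 608. Shmt1 shares 301 bases, 10.5% of its transcript, with Smcr8 on the opposite strand, whose log2 fold change in the authors' deposited table was 0.16 (SE 0.10, adjusted p 0.303).

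Of the 3 members that act in mitochondria downstream of SHMT2, Mthfd2 had the lowest fold change. The authors' deposited table gave Mthfd2, a dehydrogenase and cyclohydrolase, a mean of 4378 and a log2 fold change of -0.36 (SE 0.070, adjusted p 6.35e-06), or -22.1% (interval -29.2% to -14.3%). Mthfd1l, which releases formate for export to the cytosol, fell by a smaller amount. Its log2 fold change in the authors' deposited table was -0.18 (SE 0.060, adjusted p 0.0195) at a mean of 5147, or -11.5% (interval -18.4% to -4.06%). This call did not hold at an adjusted p under 0.01. Those of Shmt1, Shmt2 and Mthfd2 held there but not in a test against changes within 0.2 on the log2 scale. Aldh1l2, which oxidises 10-formyl-tetrahydrofolate in mitochondria, was not called. Its log2 fold change in the authors' deposited table was -0.13 (SE 0.078, adjusted p 0.27) at a mean of 4889, with an interval from -17.5% to 1.82%. It shares 1056 bases, 17.5% of its transcript, with Nopchap1 on the opposite strand. Its SE was 1.18 times the median of the 500 genes nearest in mean, the highest such ratio of the set, and the lowest was 0.91.

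The cytosolic Mthfd1, which carries out these interconversions in a single trifunctional protein, was the member nearest to 0. Its mean in the authors' deposited table was 6533 and its log2 fold change -0.06 (SE 0.059, adjusted p 0.502), with an interval from -11.7% to 3.57%. The implied means were 6680 with vehicle and 6387 with AA147. A fall as large as that of Phgdh or Asns lies outside this interval. The 95% intervals of Mthfd1 and of 7 of the 9 other members did not overlap, the exceptions being Mthfd1l and Aldh1l2. Among all 45 pairs of members, 17 had intervals that did not overlap. The differences between members were not tested, since all share the same libraries and the covariance of their values is unknown.

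The order of the members by level was different from that by change. Per kilobase of canonical transcript, Psat1 was highest at 7527 normalized counts, followed by Shmt2 at 7009, Phgdh at 3161 and Asns at 2660. Mthfd2 at 2084, Mthfd1 at 1956, Mthfd1l at 1385 and Aldh1l2 at 811 came next, and Psph at 664 and Shmt1 at 608 were lowest. Neighbours in this order cannot be separated without values per library. The most and the least changed members by fold, Psph and Mthfd1, were thus both outside the upper group of 4. That group, with log2 fold changes from -0.51 to -0.38 in the authors' deposited table, came directly after Psph in the order by fall. Whether level and change go together was not tested.

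**Figure D3:**
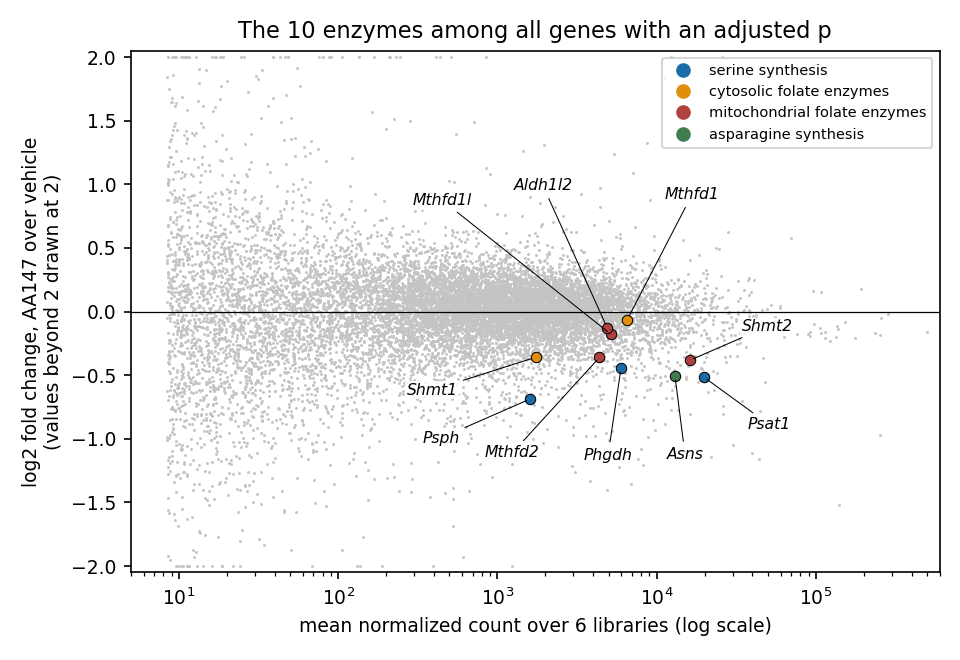
Log2 fold change against mean normalized count (log scale) for all 13597 genes with an adjusted p (grey, values beyond 2 drawn at 2) and the 10 enzyme genes (coloured by step). The members lie at means from 1613 to 19720, and all sit below 0.

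Of the 5895 tested genes whose mean reached 1000, 1.37% had a lower log2 fold change than Psph, 2.88% than Psat1, 2.99% than Asns and 3.94% than Phgdh in the authors' deposited table. The share was 4.87% for Shmt2, 5.78% for Mthfd2 and 5.85% for Shmt1. It rose to 17.0% for Mthfd1l, 23.9% for Aldh1l2 and 33.5% for Mthfd1. These positions describe the members' place and are no test. Summed over the 10 members, the implied means were 89722 with vehicle and 68561 with AA147, a difference of -23.6%.

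The closest relatives of the members in mitochondria and cytosol were listed too. Mthfd2l, a mitochondrial counterpart of Mthfd2, fell, with a log2 fold change of -0.50 (SE 0.095, adjusted p 3.05e-06) at a mean of 745 in the authors' deposited table. The authors' deposited table gave Aldh1l1, the cytosolic counterpart of Aldh1l2, a mean of only 27.4 and a log2 fold change of -0.48 (SE 0.42, adjusted p 0.484), which was not called. Of the 17 folate cycle and transport genes with an adjusted p, these relatives included, 3 were called negative and 1 positive in the authors' deposited table (median -0.12). Besides Mthfd2l, the called negative genes included the mitochondrial sarcosine dehydrogenase Sardh at -0.33 (SE 0.067) in the authors' deposited table. Of the listed genes, Ftcd, Dmgdh, Bhmt, Bhmt2, Sptlc3 and Aspg were not analysed here.

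The pathways that consume the products were listed next, and differences in their counts from that of the members were not tested. In the authors' deposited table, whose test is that of DESeq2, 0 of the 8 purine ring synthesis genes were called, with 1 at an unadjusted p under 0.05, and their median was 0.02. Of the 4 glycine cleavage genes 0 were called by the same DESeq2 test in the authors' deposited table, with 1 at an unadjusted p under 0.05. Among them Gldc had a mean of only 8.48 (SE 0.89) and Amt of 29.3 (SE 0.47), so only a large change could be called there. The 8 tested genes of the methionine cycle and transsulfuration had 2 negative and 2 positive calls in the authors' deposited table. Cth, the cystathionine lyase that yields cysteine, was at -0.65 (SE 0.091) and the methionine synthase Mtr at 0.25 (SE 0.081) in the authors' deposited table. The other calls were the Ahcy-like genes Ahcyl1 at -0.31 (SE 0.057) and Ahcyl2 at 0.34 (SE 0.10) in the authors' deposited table. Ahcy itself was at -0.15 (SE 0.13) there and was not called. Of 9 other serine-using or serine-carrying genes, Sptlc2, a subunit of the enzyme that starts sphingolipid synthesis, was called at -0.21 (SE 0.074) and Serinc3 at 0.22 (SE 0.056) in the authors' deposited table.

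The 6 listed glycolytic genes act around 3-phosphoglycerate, on either side of it. They had 0 negative calls and 1 positive call in the authors' deposited table, with 3 at an unadjusted p under 0.05 (median 0.00). With the adjustment limited to genes with a mean of at least 100, or after centring on their median, 1 of the 6 was called negative. This was the pyruvate kinase Pkm, named after its values were seen. The authors' deposited table gave it -0.15 (SE 0.058, adjusted p 0.0502). The called gene in the authors' deposited table was Bpgm, bisphosphoglycerate mutase, at 0.64 (SE 0.12, adjusted p 1.16e-06).

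Genes of other amino acid synthesis pathways fell too. Of the 7 tested genes of proline, ornithine and alanine synthesis, 4 were called negative and 0 positive in the authors' deposited table (median -0.26). In the authors' deposited table Aldh18a1, which starts proline synthesis from glutamate, had a lower value than any of the 10 members, at -0.75 (SE 0.062, adjusted p 3.25e-31). The alanine transaminase Gpt2 at -0.48 (SE 0.080), Pycr1 at -0.42 (SE 0.093) and the ornithine aminotransferase Oat at -0.26 (SE 0.062) were the other calls in the authors' deposited table. The 11 tested genes of asparagine, aspartate and glutamine metabolism other than Asns had 3 negative calls and 1 positive in the authors' deposited table (median -0.11). Among them, Asrgl1, an asparaginase, was at -0.58 (SE 0.15) and Glud1 at -0.16 (SE 0.058) in the authors' deposited table. Glul, glutamine synthetase, was called positive at 0.44 (SE 0.12) in the authors' deposited table.

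**Figure D4:**
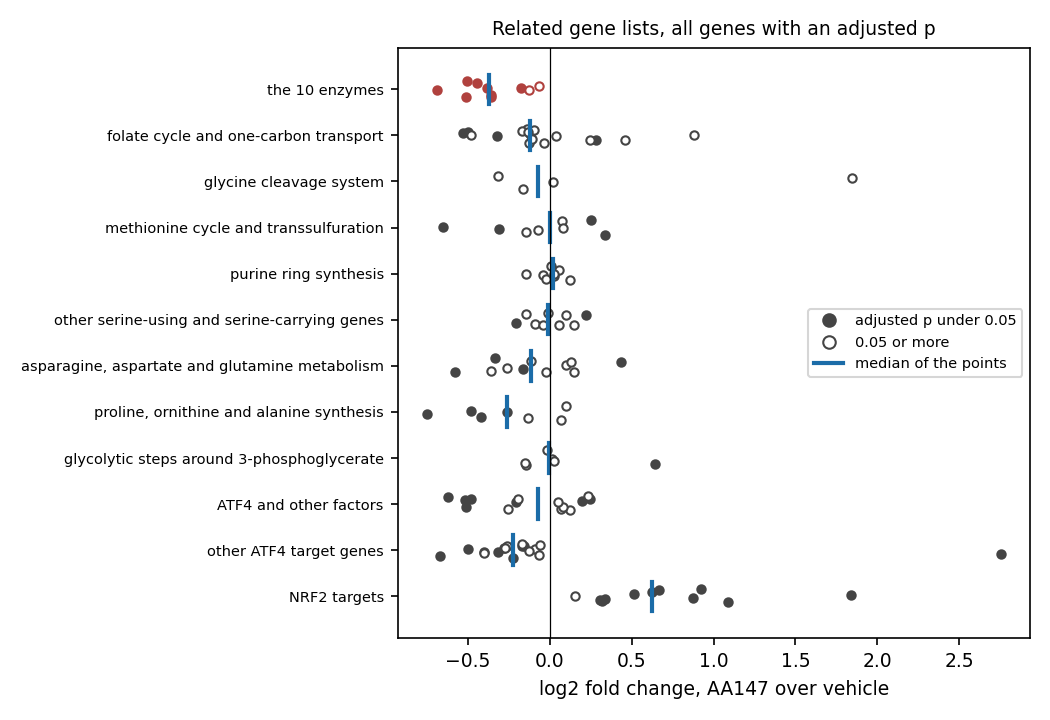
Log2 fold change, AA147 over vehicle, of the 10 enzyme genes and of each related gene list, 1 point per gene with an adjusted p (filled where it is under 0.05) and a blue bar at the median. The medians run from -0.37 for the 10 enzymes and -0.26 for proline, ornithine and alanine synthesis to 0.02 for purine ring synthesis and 0.63 for NRF2 targets.

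Atf4, the factor known to act on most of the called members, was called negative too. Its mean in the authors' deposited table was 15284 and its log2 fold change -0.51 (SE 0.061, adjusted p 2.67e-15). Whether this fall has a part in that of the members was not tested. Trib3 at -0.62 (SE 0.089), Atf5 at -0.52 (SE 0.073) and Cebpb at -0.48 (SE 0.089) were also called negative in the authors' deposited table. In all, 5 of the 14 listed factors were called negative and 2 positive in the authors' deposited table, the positive ones being Myc at 0.25 (SE 0.072) and Eif2ak1 at 0.20 (SE 0.076). The call of Eif2ak1 did not hold after centring on the median of genes with a mean of at least 100. The other 3 kinases that phosphorylate eIF2alpha were not called: Eif2ak2 was at 0.08, Eif2ak3 at -0.19 and Eif2ak4 at 0.05, with SEs from 0.067 to 0.084 in the authors' deposited table. Over all tested genes, 11.1% were called negative and 9.05% positive. Of 17 tested ATF4 targets outside amino acid synthesis, 8 were called negative, 1 positive and 8 not called in the authors' deposited table (median -0.22). The amino acid transporter subunits Slc7a5 at -0.67 (SE 0.069) and Slc3a2 at -0.50 (SE 0.062), the lipoprotein receptor Vldlr at -0.40 (SE 0.094) and the asparaginyl-tRNA synthetase Nars at -0.31 (SE 0.064) had the largest negative values among these calls in the authors' deposited table. The positive call was Gdf15 at 2.76 (SE 0.83), with a mean of only 10.3 normalized counts in the authors' deposited table.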

How the data were processed

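HT22 mRNA libraries were sequenced from cells given AA147 or vehicle, 3 libraries each. Per the submitters' processing notes, the authors used DESeq2 and genome build mm9. The aligner, counter, annotation and versions are not given in the sources used here. The authors deposited per gene a signal (the mean of normalized counts), a log2 fold change with its standard error, a score (the Wald statistic), and p-values before and after adjustment, the latter for 13597 genes. These came as 1 comparison with no value per library, so depth and replicate spread were not analysed here. Of 16472 genes, 2875 had no adjusted p.

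Computed here were 95% intervals, implied group means, counts of calls, and the alternatives given below. Lengths, overlaps and copies came from canonical GENCODE M39 transcripts (GRCm39, BLAST 2.17.0), and promoters from RefSeq for GRCm38.p6, with no coordinates carried between builds. Python 3.11.15, pandas 2.3.3 and SciPy 1.17.1 were used, and the code was tested on simulated data. The members and lists were chosen with earlier results of these data known. Named genes were the members, Atf4, the eIF2alpha kinases, Mthfd2l, Aldh1l1, and up to 4 called genes per list and direction with the largest fold changes. Overlapping genes, marker genes and genes without a row were named besides. Pkm, Gldc, Amt and Ahcy were added after their values were seen. Some genes that the rule selects are not reported here.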

Additional observations from a re-analysis of the deposited data

How the results depend on the processing

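No paired analysis was possible because values per library were not given, and leaving out each replicate was not run for the same reason. The 8 negative and 0 positive calls among the 10 members were 8 and 0 with the Benjamini-Hochberg adjustment over every gene with a p, over genes with a mean of at least 100, and after centring on the median of those genes, a shift of 0.01. At an adjusted p under 0.01 there were 7, without Mthfd1l (adjusted p 0.0195), and with a Bonferroni adjustment 6, without Mthfd1l (1) and Shmt1 (0.235). Testing against changes within 0.2 (log2) of 0 left 4, namely Phgdh, Psat1, Psph and Asns, while the adjusted p was 0.0777 for Shmt2, 0.32 for Mthfd2, 0.628 for Shmt1 and 1 for Mthfd1l. The statistic divided by its robust SD of 2.03 left the same 4, with 0.0955 for Shmt2, 0.256 for Mthfd2, 0.494 for Shmt1 and 0.923 for Mthfd1l. That setting called 347 genes in all and the test against 0.2 gave 614, against 2741 as deposited, and each is stricter by construction. The alternatives other than centring leave a member's fold change as it is, by construction. Centring shifts it, and all 10 members stayed negative. The 127 listed context genes, not all with an adjusted p, had 26 negative and 19 positive calls as deposited. These became 14 and 9 with Bonferroni, 11 and 9 against 0.2, and 8 and 6 with the rescaled statistic. The NRF2 targets listed to check the sign held 10 of the 19 positive calls, and then 8, 7 and 6 of them. Over all tested genes the share of negative calls was 11.1% as deposited, 3.85% with Bonferroni, 3.07% against 0.2 and 1.82% with the rescaled statistic. Centring made this share 11.9%. The unknown depth per library limits precision in a way that only the standard errors show.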
